A study of Homo sapiens with 12 samples.

Results

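The 30 genes described here encode the enzymes that make cholesterol, the proteins that sense sterol levels in the endoplasmic reticulum, and proteins that take up, move or store cholesterol. They were chosen by name from the 50868 genes of the deposited table, and all 30 had enough reads to be among the 16554 genes tested. RNA came from RPMI2650, an established human line of nasal septum epithelium with a wild-type genotype label, cultured with its upper surface exposed to air. Besides 4 control libraries, there were 4 from cells given perfluorobutanoic acid (PFBA) and 4 from cells given perfluorohexanoic acid (PFHxA), each acid at 1 µM for 7 days. These 2 perfluoroalkyl carboxylic acids differ in the length of the fluorinated carbon chain, which is longer in PFHxA, and the study asked how acids of different length change gene activity in these cells. No vehicle, dose or day is recorded for the control, and separate cultures are not named for the libraries of a group, so p-values measure the spread between libraries, which may be technical.

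Cholesterol is built from acetyl-CoA, first through the mevalonate pathway, which also supplies isoprenoids, and then from squalene through a series of sterol intermediates. When sterols in the endoplasmic reticulum run low, SCAP carries the transcription factor encoded by SREBF2 to the Golgi, where proteolysis releases the active part, which raises transcription of most genes of synthesis and uptake. When sterols are plentiful, INSIG1 and INSIG2 hold SCAP in the endoplasmic reticulum, and NPC1 and NPC2 export cholesterol that arrives in lysosomes. In epithelia, cholesterol shapes apical membranes and the junctions between cells.

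Libraries are named by their group and the letter of their column, and their totals lay between 16941599 counts (control d) and 21879105 (PFBA a). Levels below are in CPM, counts scaled to a common library size, and a gene was called where edgeR's adjusted p over all tested genes was under 0.05. The keratins KRT5 (1755 to 2090 CPM), KRT7, KRT8, KRT18 and KRT19 and the adhesion protein EPCAM were read in all 12 libraries, as the epithelial label implies. The remaining epithelial markers of the list were low, CDH1 at 6 to 12.6 CPM, CLDN4 at 1.35 to 2.42 and CDH3 at 0.499 to 2.03. Of the 5 airway secretory and ciliated markers, SCGB1A1 was at 0 in all 12 libraries and BPIFA1 had reads in 1, while FOXJ1 (6.90 to 9.18 CPM), MUC5AC (0.396 to 1.81) and DNAI1 (0.145 to 1.04) were read in all 12. VIM, an intermediate filament of mesenchymal and many cultured cells, lay between 590 and 862 CPM, and of the other 6 mesenchymal markers PDGFRB (23.0 to 29.4 CPM), COL1A1 (1.81 to 2.82) and PDGFRA (0.885 to 3.09) were read in all 12, while DCN, LUM and COL1A2 were at or near 0. Of the 5 immune markers, PTPRC and CD3E were at or near 0, LYZ and CD79A reached at most 0.352 and 0.706 CPM, and CD68 lay at 0.928 to 2.71 CPM. Of the 4 endothelial markers, CDH5 lay at 6.035 to 10.2 CPM, and PECAM1, VWF and KDR reached at most 0.826, 0.831 and 0.590. Summed over their lists, the 9 epithelial markers lay at 4012 to 4170 CPM in control, 3748 to 3998 with PFBA and 4117 to 4363 with PFHxA, and the 7 mesenchymal markers at 621 to 885, 656 to 890.2 and 648 to 690.2 CPM.

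Levels of different genes can be set side by side only per length, so counts were divided by the merged exon length of each gene in GENCODE 29 and by the library total. On that scale, RPKM, SREBF2 was highest in control at 63.9 ± 3.83 (SD, n = 4), followed by CYP51A1, the demethylase of lanosterol, at 46.6 ± 3.21 and HMGCS1, the synthase that feeds the mevalonate pathway, at 37.2 ± 2.89. SREBF2 and CYP51A1 stood apart from their neighbours in this order by more than their SDs, while HMGCS1 did not differ by its SD from MSMO1, the sterol methyl oxidase, at 36.1 ± 2.28. Lowest were NPC1 at 3.73 ± 0.341, MVK, mevalonate kinase, at 2.80 ± 0.164, and MYLIP, a ubiquitin ligase for lipoprotein receptors, at 1.87 ± 0.186. Division by the longest transcript instead of the merged exons left SREBF2, CYP51A1 and HMGCS1 as the first 3 (84.8, 52.0 and 49.9) and MVK and MYLIP as the last 2.

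RefSeq promoter windows of GRCh38.p14, 250 bases before to 50 after a transcription start, were found for 27 of the 30 genes in 36 windows. Patterns known from sterol-regulated promoters were searched on both strands: TCACNCCAC, a sterol element, CACGTG, an E-box, and CCAAT, the box bound by NF-Y. CCAAT was in 23 of the 36 windows (63.9%, 21 genes) and in 34.6% of all 35116 windows of that length. CACGTG was in 5 windows (13.9%; LSS, SC5D, SCAP and INSIG1) and in 7.26% of all, and TCACNCCAC in 1 window (2.80%), that of SREBF2, and in 1.13% of all. A match is a description of letters and not evidence of binding. Shown here are the stretches from 180 to 41 bases before the start for SREBF2 and SCAP, which were higher with PFHxA, and for IDI1 and STARD4, which were lower, with the matched patterns in capitals.
SREBF2 promoter: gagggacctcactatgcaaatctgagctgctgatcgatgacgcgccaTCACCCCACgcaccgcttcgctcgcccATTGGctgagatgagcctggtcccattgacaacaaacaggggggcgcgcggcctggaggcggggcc
SCAP promoter: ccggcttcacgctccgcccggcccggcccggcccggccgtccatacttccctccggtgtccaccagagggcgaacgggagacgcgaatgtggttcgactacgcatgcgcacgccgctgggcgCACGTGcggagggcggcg
IDI1 promoter: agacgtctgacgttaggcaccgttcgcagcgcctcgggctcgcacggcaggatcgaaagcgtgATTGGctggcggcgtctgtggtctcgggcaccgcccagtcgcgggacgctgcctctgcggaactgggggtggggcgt
STARD4 promoter: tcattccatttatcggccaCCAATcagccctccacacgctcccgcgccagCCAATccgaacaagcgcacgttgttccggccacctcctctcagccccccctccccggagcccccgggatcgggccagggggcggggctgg
They lie at chr22:41832925-41833064, + strand, at chr3:47475982-47476121, - strand, at chr10:1049160-1049299, - strand and at chr5:111512576-111512715, - strand. SREBF2 carries the sterol element beginning 133 bases before its start, followed by ATTGG, which is CCAAT on the other strand. SCAP carries an E-box alone, in a window whose RefSeq start lies 1185 nt from the start of the gene in the deposited table. IDI1, shown by the window nearest the deposited start of its 3, has 1 CCAAT box on the other strand in this stretch, and STARD4 has 2 as written. In these stretches the CCAAT box was in both lower genes and in SREBF2 but not in SCAP. Its relation to the changes was not tested.

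With PFHxA, genes of this pathway moved in both directions and by small amounts. The sensor genes SREBF2 and SCAP and the lysosomal exporter NPC1 rose by 1.16- to 1.20-fold, and IDI1 and GGPS1 of the mevalonate pathway and the sterol carrier STARD4 fell. Counted against all genes, 3 of 30 were called higher, where 6.08% of all tested genes were, and 3 of 30 lower, where 8.82% were. Neither count stands far from its background. The fitted change was upward for 19 and downward for 11 of the 30, with a median log2 fold of 0.06, and the median over all tested genes was -0.0039. All 4 PFHxA libraries lay on 1 side of all 4 control libraries for 5 genes (FDPS, SCAP and SREBF2 higher, IDI1 and HMGCS1 lower), and the same was true of 20.7% of all genes.

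**Figure D1:**
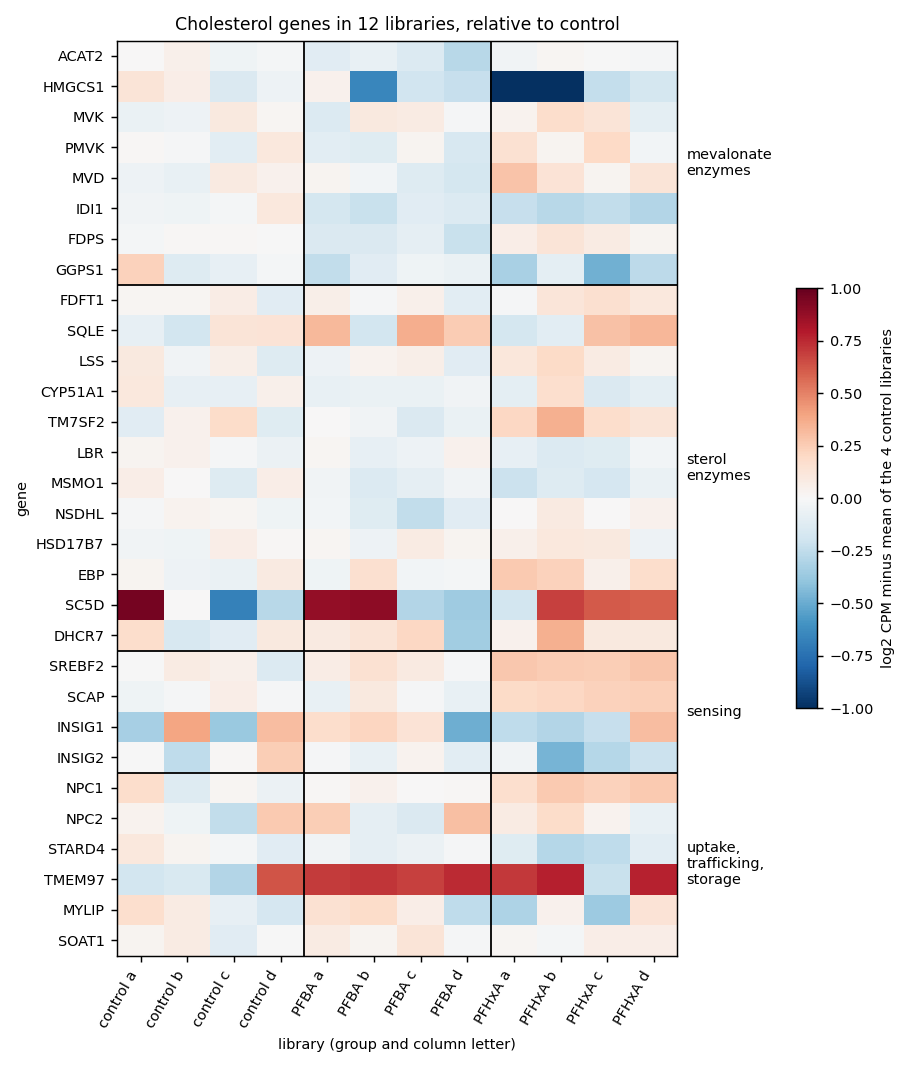
Level of each of the 30 genes (rows, grouped by role) in each of the 12 libraries (columns), as log2 CPM minus the mean of the 4 control libraries, on a colour scale that ends at -1 and 1. SREBF2 and SCAP are evenly raised over the 4 PFHxA libraries, whereas HMGCS1, SC5D, INSIG1 and TMEM97 differ strongly between libraries of the same group.

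**Figure D2:**
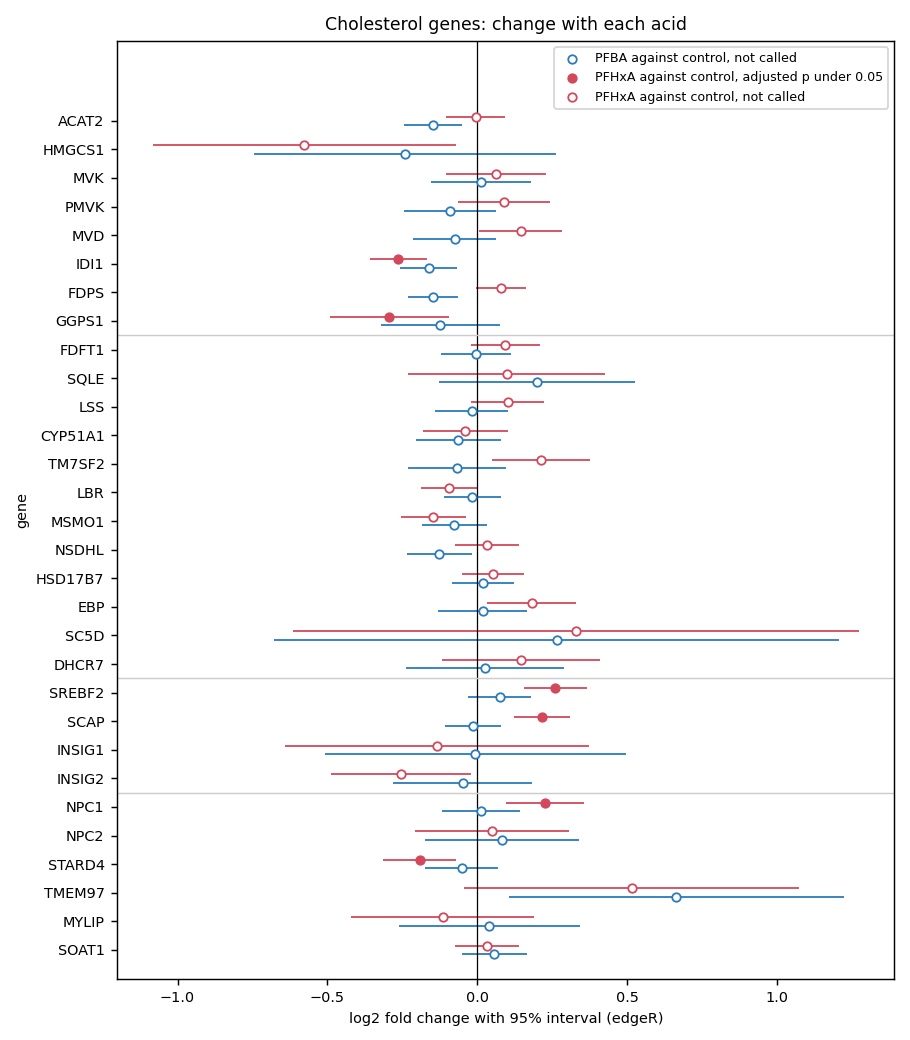
Fitted log2 fold change of each gene (rows) with its 95% interval from edgeR, PFBA against control in blue and PFHxA against control in red. Filled points mark an adjusted p under 0.05, which 6 genes reached with PFHxA and 0 with PFBA, and the widest intervals belong to SC5D, TMEM97, HMGCS1 and INSIG1.

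Of the 4 sensing genes, SREBF2 (chr22:41833079-41907308, + strand), the transcription factor gene of the pathway, was at 480.4, 512, 501 and 439 CPM in control a to d. It was at 508, 535, 512 and 479 CPM in PFBA a to d and at 582, 576, 572 and 584 CPM in PFHxA a to d. The PFHxA libraries agreed closely with one another and all lay above every control and PFBA library. The rise over control was 1.20-fold (log2 0.26, SE 0.0486, adjusted p = 0.00440). SCAP (chr3:47413694-47477126, - strand), the escort of that factor, was at 176, 181, 191 and 180.3 CPM in control, 173, 194, 181 and 173 with PFBA and 208, 209.7, 214 and 215 with PFHxA, in the order a to d. Again the 4 PFHxA libraries stood above the other 8 without overlap, by 1.16-fold over control (log2 0.22, SE 0.0431, adjusted p = 0.00577). INSIG1 and INSIG2, which retain SCAP, were not called, at log2 folds of -0.13 and -0.25 (adjusted p = 0.764 and 0.141). The calls of SREBF2 and SCAP against control held without any single library.

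NPC1 (chr18:23506184-23586898, - strand), the lysosomal membrane protein that exports cholesterol, was the only gene of uptake, trafficking and storage called higher of 6. Its level was 42.3, 34.2, 38.0 and 35.96 CPM in control a to d, 37.8, 38.6, 37.5 and 37.7 in PFBA a to d and 42.2, 44.96, 43.9 and 45.04 in PFHxA a to d. Control a, at the level of PFHxA a, made the groups overlap, and the remaining controls lay below every PFHxA library. The rise was 1.17-fold (log2 0.23, SE 0.0602, adjusted p = 0.0238), and the call was lost without control b, control d, PFHxA b or PFHxA d (adjusted p between 0.0592 and 0.0625). Reads of NPC1 may be shared with RMC1, which overlaps it on the opposite strand with 46.7% as many counts, because the strand setting of the counting is not known. Its lysosomal partner NPC2 had a log2 fold of 0.05 (adjusted p = 0.841) and SOAT1, which esterifies cholesterol for storage, 0.03 (adjusted p = 0.732).

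Against these rises, IDI1 (chr10:1039908-1049170, - strand), the isomerase that forms the second isoprene building block, fell. It was at 87.3, 86.9, 88.3 and 96.6 CPM in control a to d, 79.4, 76.7, 83.0 and 81.8 in PFBA a to d and 76.3, 73.9, 75.5 and 73.4 in PFHxA a to d. The 3 groups formed 3 steps without any overlap, control highest, PFBA between and PFHxA lowest. The step between the acids was not called (log2 -0.10, adjusted p = 0.159, edgeR). The fall with PFHxA was 1.20-fold (log2 -0.26, SE 0.0442, adjusted p = 0.00256), the smallest adjusted p of the 30 in this comparison, and it was called without each library in turn. For PFBA the log2 fold was -0.16 (adjusted p = 0.304), which did not pass.

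GGPS1 (chr1:235327350-235344532, + strand), which makes geranylgeranyl diphosphate for protein prenylation, was at 43.1, 33.5, 34.7 and 36.1 CPM in control a to d, 30.8, 33.9, 35.5 and 35.1 with PFBA and 29.3, 34.3, 26.2 and 30.5 with PFHxA. Control a was the highest library and PFHxA c the lowest, and PFHxA b reached into the control range. The fall was 1.23-fold (log2 -0.29, SE 0.0924, adjusted p = 0.0491) and lay at the threshold: 10 of the 12 fits that left out 1 library did not call it (adjusted p 0.0526 to 0.147). ARID4B, on the opposite strand, overlaps GGPS1 with 140% as many counts. STARD4 (chr5:111496033-111512590, - strand), a soluble protein that carries sterol between membranes, was at 62.5, 59.2, 57.2 and 53.6 CPM in control a to d, 56.5, 54.5, 55.6 and 57.7 with PFBA and 53.4, 47.6, 48.7 and 53.9 with PFHxA. PFHxA d alone of its group reached the lowest control, d, with PFHxA a just below it, and PFHxA b and c were the lowest of the 12. Its fall was 1.14-fold (log2 -0.19, SE 0.0564, adjusted p = 0.0367), and 7 of the 12 fits without 1 library lost the call (adjusted p 0.0501 to 0.122).

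**Figure D3:**
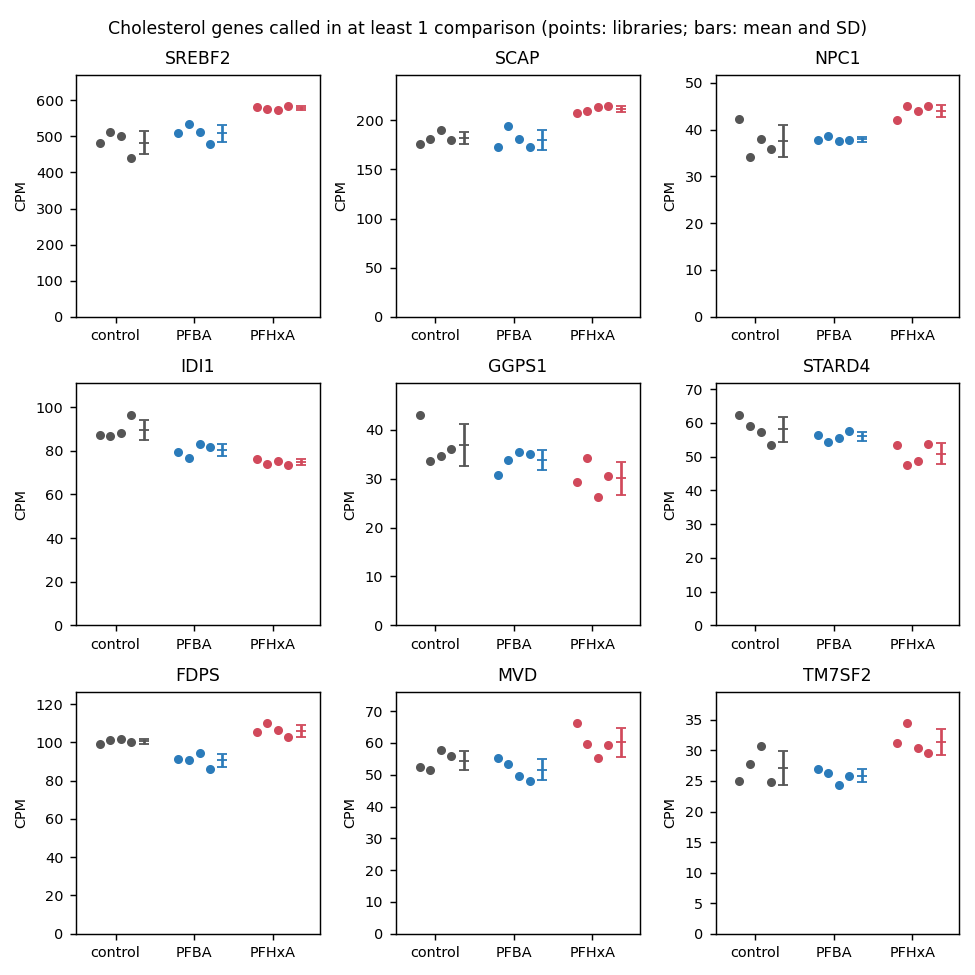
Level in CPM (vertical axis, from 0) of the 9 genes called in at least 1 of the 3 comparisons, with 1 point per library in the order a to d and bars for the group mean and SD (n = 4). SREBF2 and SCAP are separated upward in PFHxA and IDI1 downward, FDPS is lowest with PFBA, and the groups of GGPS1 overlap.

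None of the 12 enzymes from squalene synthesis to cholesterol was called with PFHxA against control, by edgeR. An unadjusted p under 0.05 was reached by 3 of the 12, and by 4719 of the 16554 genes tested. Of these 12, 9 were fitted higher and 3 lower, with a median log2 fold of 0.10. The 3 with an unadjusted p under 0.05 were MSMO1, the sterol methyl oxidase, EBP, the sterol isomerase, and TM7SF2, a sterol reductase. Their log2 folds were, in that order, -0.15 (adjusted p = 0.0708), 0.18 (adjusted p = 0.0976) and 0.21 (adjusted p = 0.0766). MSMO1 averaged 104 ± 6.46 CPM in control and 94.4 ± 4.01 with PFHxA (SD, n = 4), and EBP 21.1 ± 1.08 and 23.9 ± 1.52. DESeq2 called TM7SF2 (adjusted p = 0.0496), and leaving out control c brought TM7SF2 (adjusted p = 0.0243) and MSMO1 (adjusted p = 0.0222) past the threshold in edgeR. Among the mevalonate enzymes, ACAT2, which makes acetoacetyl-CoA, and PMVK, phosphomevalonate kinase, had log2 folds of -0.01 (95% interval -0.10 to 0.09) and 0.09 (-0.06 to 0.24).

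With PFBA, 0 of the 30 genes were called against control by edgeR, where 1 gene of 16554 (0.00604%) was. Unadjusted, 5 of the 30 had a p under 0.05, as did 1632 of all genes, and DESeq2 and limma-voom also called 0 of the 30, while they called 44 and 0 of all genes. The smallest adjusted p was 0.304, shared by IDI1 and FDPS. The median log2 fold was -0.02 over the 30 and -0.0026 over all genes. The 8 mevalonate enzymes had a median of -0.14, and 7 of them were fitted lower, the exception being MVK at 0.01. ACAT2, FDPS and IDI1 were lower in all 4 PFBA libraries than in all 4 controls, and TMEM97 was higher, 4 of 30 genes where 5.96% of all genes had groups without overlap.

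FDPS (chr1:155308748-155320666, + strand), which makes farnesyl diphosphate at the branch to squalene and prenylation, shows the size of these differences. It was at 99.2, 101, 102 and 99.9 CPM in control a to d, 91.1, 90.9, 94.3 and 86.2 in PFBA a to d and 105, 110.0, 106 and 103 in PFHxA a to d. PFBA libraries were lowest and PFHxA libraries highest, with no overlap among the 3 groups. The log2 fold was -0.15 with PFBA (95% interval -0.23 to -0.07, adjusted p = 0.304) and 0.08 with PFHxA (-0.01 to 0.16, adjusted p = 0.208), and neither was called. ACAT2 was at 107, 111, 103 and 105 CPM in control a to d, 98.5, 101, 96.9 and 88.1 with PFBA and 104, 108, 106 and 106 with PFHxA. Its PFBA values alone lay low, at a log2 fold of -0.15 (95% interval -0.25 to -0.05, adjusted p = 0.344). TCP1 and SOD2 overlap ACAT2 on the opposite strand with 157% and 62.2% as many counts.

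The 2 acids were compared directly at the same dose and time, as 1 pair of compounds. PFHxA, with the longer chain, gave higher levels than PFBA of 6 of the 30 genes (MVD, FDPS, TM7SF2, SREBF2, SCAP and NPC1), where 3.84% of all genes were called higher. It gave lower levels of 0 of 30, where 7.07% of all were called lower. At an unadjusted p under 0.05, 2 of the 30 (IDI1 and STARD4) were lower and 10 higher, as were 2326 and 2073 of the 16554 genes tested. DESeq2 and limma-voom also called 0 lower and called 8 and 6 higher. The median log2 fold was 0.04 over the 30 and 0.0055 over all genes. Groups did not overlap for 8 genes higher with PFHxA (the 6 called, ACAT2 and NSDHL) and for 2 lower (IDI1 and STARD4), and for 20.0% of all genes. This comparison uses the same PFHxA libraries as the one with control, so the calls of SREBF2, SCAP and NPC1 in both rest in part on the same measurements.

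FDPS and SCAP differed most clearly between the acids, by 1.17-fold (log2 0.23, SE 0.0387, adjusted p = 0.00349) and 1.17-fold (log2 0.23, SE 0.0431, adjusted p = 0.00532), and both were called without each library in turn. SREBF2 was 1.14-fold higher (log2 0.19, SE 0.0486, adjusted p = 0.0261) and NPC1 1.16-fold higher (log2 0.22, SE 0.0601, adjusted p = 0.0359) with PFHxA. MVD (chr16:88651935-88663161, - strand), the decarboxylase that ends the mevalonate steps, was at 52.4, 51.5, 57.9 and 55.9 CPM in control a to d, 55.3, 53.4, 49.7 and 48.1 in PFBA a to d and 66.2, 59.6, 55.4 and 59.3 in PFHxA a to d. PFHxA c came within 0.1 CPM of PFBA a, and control c and d lay among the PFHxA values. The difference was 1.16-fold (log2 0.22, SE 0.064, adjusted p = 0.0430).

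TM7SF2 (chr11:65111845-65116384, + strand) was at 25.0, 27.8, 30.7 and 24.8 CPM in control a to d, 27.0, 26.3, 24.4 and 25.7 in PFBA a to d and 31.1, 34.4, 30.4 and 29.6 in PFHxA a to d. Its 4 PFHxA libraries lay above the 4 PFBA libraries, and control c reached the PFHxA range. The difference between the acids, 1.21-fold (log2 0.28, SE 0.0755, adjusted p = 0.0308), was the largest of the 6 called. VPS51 overlaps TM7SF2 on the same strand with 277% as many counts, so part of its reads may belong to either gene. LBR, the other sterol reductase of this step and also a protein of the inner nuclear membrane, had a log2 difference of -0.08 (95% interval -0.17 to 0.02). Leaving out single libraries lost the calls of MVD in 7 of 12 fits, of NPC1 and SREBF2 in 6 each and of TM7SF2 in 5, with adjusted p between 0.0506 and 0.123.

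For 24 of the 30 genes the acids were not shown to differ, which does not show that they act alike. In 20 of these 24 the 95% interval of the difference lay wholly within 0.5 log2 units of 0, between -0.46 and 0.38. NSDHL, a dehydrogenase that removes sterol methyl groups, and ACAT2 came closest, at log2 differences of 0.16 (95% interval 0.05 to 0.27, adjusted p = 0.0578) and 0.14 (0.04 to 0.24, adjusted p = 0.0613). Each was called in 2 fits with other settings, DESeq2 among them (adjusted p = 0.0387 and 0.0361). Leaving out PFBA a for NSDHL (adjusted p = 0.0401) or PFBA b for ACAT2 (adjusted p = 0.0375) also brought the call in edgeR. PMVK, STARD4 and EBP followed at 0.18 (0.03 to 0.33), -0.14 (-0.26 to -0.02) and 0.16 (0.02 to 0.31), with STARD4 the 1 of these 5 fitted lower with PFHxA. The intervals of HMGCS1, INSIG1, SC5D and TMEM97 were wider, up to -0.87 to 1.00 for SC5D, the sterol desaturase.

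The direction of change with PFHxA followed the base composition of the transcripts, in these 30 genes as in the whole table. For each library, log2 levels relative to each gene's mean over all 12 libraries were fitted on GC content and transcript length. Per 10 points of GC content, these relative levels shifted by -0.0661 to -0.0132 in the control libraries. The shift was -0.0650 to 0.00417 with PFBA and 0.0706 to 0.104 with PFHxA. All 9 of the genes with at least 55% GC, among them SREBF2 (57.1%), SCAP (62.3%), MVD (63.7%), FDPS (56.0%) and TM7SF2 (64.2%), were fitted higher with PFHxA than in control (median log2 fold 0.14) and than with PFBA (0.19). Of the 12 genes under 45% GC, such as IDI1 (41.1%), GGPS1 (40.4%) and STARD4 (34.2%), 8 were fitted lower than control and 4 higher (median -0.12). Over the 30 genes the log2 fold against control had a Pearson correlation of 0.53 with GC content and a Spearman correlation of 0.64. Over 16452 genes with a known transcript these were 0.36 and 0.46. For PFHxA against PFBA both correlations were 0.79 over the 30, and for PFBA against control they were -0.07 and -0.02. These points share the libraries, so the values are descriptions.

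After each library's dependence on GC content and transcript length had been taken out, 433 genes (2.62%) were still called for PFHxA against control and 146 (0.882%) against PFBA, and 0 of the 30 were called in either. Before adjustment of p, 9 and 13 of the 30 then had a p under 0.05, as did 2846 and 2226 of the 16554 genes tested, a smaller share each time. The median log2 folds were 0.07 and 0.10 over the 30, and 0.0011 and 0.0094 over all genes. Against control, SREBF2 went to a log2 fold of 0.12 (adjusted p = 0.0901), SCAP to 0.08 (0.209), NPC1 to 0.14 (0.234), IDI1 to -0.12 (0.1003) and GGPS1 to -0.12 (0.585). STARD4 changed sign, to 0.04 (adjusted p = 0.761). The smallest adjusted p belonged to HSD17B7, a sterol ketoreductase, at 0.19 (adjusted p = 0.0517). Against PFBA, FDPS kept the smallest, at 0.15 (adjusted p = 0.0839). Among the 8 of 30 that changed sign against PFBA were IDI1, to 0.04 (adjusted p = 0.687), and STARD4, to 0.11 (adjusted p = 0.339). The step of IDI1 from PFBA down to PFHxA was thus not kept. The calls above therefore hold for the counts as scaled between libraries and not after this adjustment, and whether the trend arose in the cells or in library preparation was not tested.

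**Figure D4:**
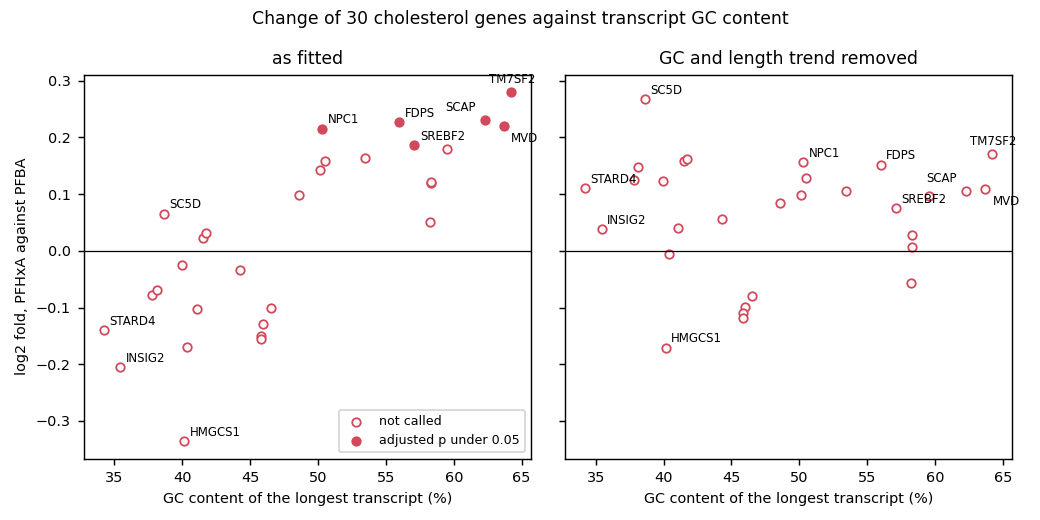
Log2 fold of PFHxA against PFBA (vertical axis) for each of the 30 genes against the GC content of its longest transcript (horizontal axis, %), as fitted on the left and with each library's GC and length trend removed on the right. Filled points were called. The slope across the left panel (Pearson 0.79) is absent on the right (0.05), where the dependence on GC content was taken out by design.

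A few genes varied far more between libraries of the same group than the rest, seen after their values were examined. TMEM97 (chr17:28319095-28328685, + strand), an endoplasmic reticulum protein that binds NPC1, was at 52.1, 53.4, 48.2 and 91.8 CPM in control a to d, 96.3, 97.5, 95.4 and 99.5 in PFBA a to d and 96.8, 102, 50.7 and 101 in PFHxA a to d. The 12 values fell on 2 levels, 4 libraries at 48.2 to 53.4 CPM and 8 at 91.8 to 101.9, with a gap of 0.78 on the log2 scale between them. All PFBA libraries were on the upper level, control d was with them, and PFHxA c was with the lower controls. The log2 fold was 0.66 for PFBA (95% interval 0.11 to 1.22, adjusted p = 0.445) and 0.51 for PFHxA (adjusted p = 0.213). Without control d (log2 0.77, adjusted p = 0.0463) or without PFHxA c (log2 0.71, adjusted p = 0.0479) the PFHxA difference was called.

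SC5D was at 40.4, 20.8, 13.0 and 17.2 CPM in control a to d, 38.3, 38.8, 16.9996 and 16.2 in PFBA a to d and 18.3, 33.5, 32.0 and 31.6 in PFHxA a to d. There were 6 libraries at 13.0 to 20.8 CPM and 6 at 31.6 to 40.4, and each group held libraries of both kinds. HMGCS1 was at 190.3, 183, 158 and 168 CPM in control, 179.8, 111, 152 and 148 with PFBA and 86.3, 80.6, 148 and 154 with PFHxA, in the order a to d. PFHxA a and b were at about the level of each other and far below PFHxA c and d, and all 4 lay below the lowest control. The log2 fold of HMGCS1 was -0.58 (SE 0.227), the largest in size of the 30 with PFHxA, and was not called by edgeR (adjusted p = 0.124) but was by DESeq2 (adjusted p = 0.0243). INSIG1 was at 24.6, 40.8, 23.9 and 38.4 CPM in control, 35.0, 35.9, 34.0 and 22.03 with PFBA and 26.0, 25.3, 26.4 and 38.3 with PFHxA, again with high and low libraries in each group.

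The libraries below the widest gap of a gene were partly shared between genes: control a and PFHxA c were low for both TMEM97 and INSIG1 and high for SC5D. Control c was low for TMEM97, INSIG1 and SC5D alike. The 3 libraries below the gap of HMGCS1 (PFBA b, PFHxA a and PFHxA b) were also below that of SQLE, together with control a and b. The gap of SQLE was only 0.21 log2 units, and 20.8% of genes with a mean of at least 10 CPM had a gap as wide. Of the 29 genes with a mean of at least 10 CPM, 4 had a gap of at least 0.3 log2 units between neighbouring libraries, as did 11.6% of the 10072 such genes of the table. A gap as wide as that of TMEM97 was found in 2.46% of them, and a spread within groups as large as that of SC5D (SD 0.62 on the log2 scale) in 1.39%, where the median gene had an SD of 0.099. For SQLE, squalene epoxidase, the values were 91.8, 85.3, 106 and 107 CPM in control a to d, 121, 85.8, 125 and 116 with PFBA and 86.0, 90.4, 119 and 122 with PFHxA, with low and high libraries in every group.

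**Figure D5:**
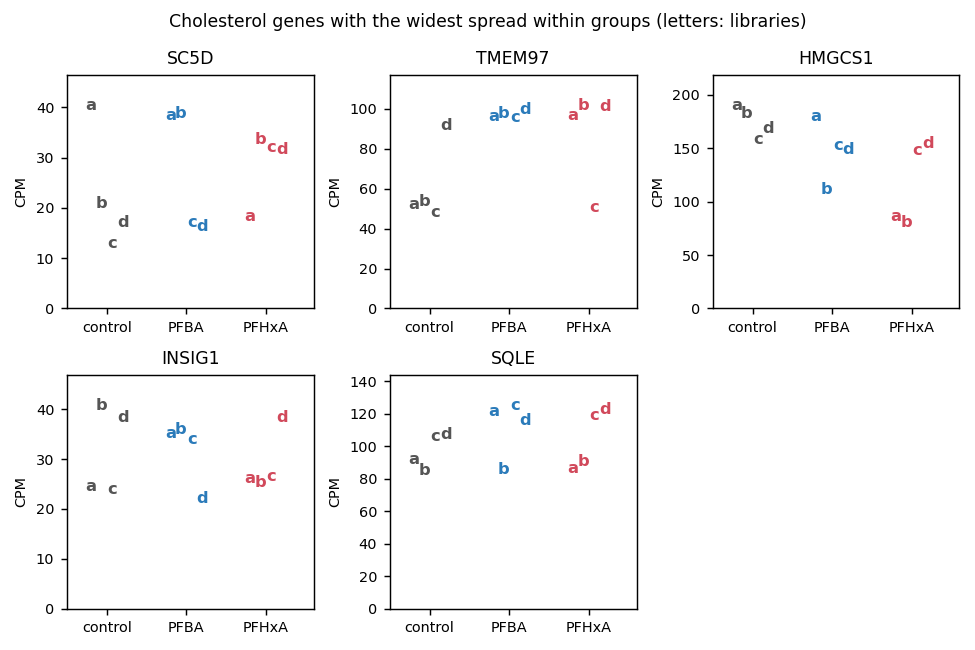
Level in CPM (vertical axis, from 0) of 5 genes with wide spread within groups, with the letter of each library as its point. TMEM97 falls on 2 levels and SC5D on 2 levels crossing all 3 groups, and PFBA b, PFHxA a and PFHxA b are low for both HMGCS1 and SQLE.

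Around these 30 genes, 69 companion genes of cholesterol handling were looked up, of which 63 were tested. With PFHxA, 4 of the 63 were called higher than control, where 6.08% of all tested genes were, and 6 lower, where 8.82% were, so both counts are near their background. The median log2 fold was 0.02, where it was -0.0039 over all tested genes. With PFBA 0 of the 63 were called, and 9 had an unadjusted p under 0.05, as did 1632 of the 16554 genes tested. LRP1, an endocytic receptor for lipoprotein remnants, rose most of the 4 called higher, from 297, 300.1, 299 and 231 CPM in control a to d to 423, 410.2, 405 and 406 in PFHxA a to d, with PFBA at 319, 356, 326 and 304. The groups formed 3 steps without overlap, and LRP1 (log2 0.54, SE 0.0757, adjusted p = 0.00138) was the 1 companion still called after the trend was taken out (log2 0.33, adjusted p = 0.00900). SREBF1, the sister gene of SREBF2 that favours fatty acid synthesis, averaged 73.6 ± 3.04 CPM in control and 89.8 ± 2.17 with PFHxA (log2 0.29, adjusted p = 0.00258). It was 1 of 16 genes of sterol sensor turnover called. POR, which passes electrons to CYP51A1 and SQLE, rose as well (log2 0.24, adjusted p = 0.0247), 1 of 4 electron donors.

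The 6 companions called lower came from 3 of the lists. Of 14 genes of the isoprenoid branches, 3 were called lower and 0 higher (8.82% and 6.08% of all genes): RABGGTB (log2 -0.41, adjusted p = 0.00749) and PGGT1B (log2 -0.33, adjusted p = 0.00496), which attach geranylgeranyl groups to proteins, and NUS1 (log2 -0.18, adjusted p = 0.00837), which makes dolichol. Of 22 genes of sterol transfer and efflux, OSBPL8 (log2 -0.24, adjusted p = 0.00359) and OSBPL9 (log2 -0.16, adjusted p = 0.0266), lipid transfer proteins, fell, and LRP1 and the lipoprotein receptor SCARB1 (log2 0.20, adjusted p = 0.0349) rose. CYP39A1, an oxysterol hydroxylase, fell from 3.60 ± 0.185 to 2.67 ± 0.393 CPM (adjusted p = 0.0434), the 1 call among 7 genes of esters and oxysterols. Against PFBA, 3 companions were called higher with PFHxA (SREBF1, LRP1 and POR), where 3.84% of all genes were, and 5 lower (NUS1, PGGT1B, RABGGTB, OSBPL8 and OSBPL9), where 7.07% were. With the GC and length trend taken out, 0 of the 63 companions were called against PFBA (smallest adjusted p = 0.108, edgeR).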

How the data were processed

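The authors deposited 1 table of raw read counts per gene, from total RNA with a VAHTS library kit on a NovaSeq instrument, per the labels, and aligned with HISAT2 2.0.4 to GRCh38 (hg38), per the submitters' processing notes. How reads were assigned to genes (program, annotation release, strand) is not given in the sources used here. A further 12 columns of FPKM values, 1 per library, were not used, so levels between genes were ordered by counts per kilobase of GENCODE 29 exons in their place. Column prefixes were read as PFBA, control and PFHxA. The letters a to d are not tied to the label numbers and did not pair libraries (correlations of same-letter deviations between -0.0896 and 0.0625).

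All 12 libraries entered 1 edgeR 4.0.16 quasi-likelihood fit (R 4.3.3) after filterByExpr (minimum count 10, total 15) and TMM scaling, with group as the only term, two-sided F tests and Benjamini-Hochberg adjustment over 16554 genes. Intervals are at 95%. The biological coefficient of variation was 0.127. CPM uses TMM-scaled totals, except for the cell type markers and their sums, which use library totals without TMM scaling. On the log2 scale CPM has a prior count of 2, and fits were tested on simulated data. GC content and length came from the longest GENCODE 29 transcript, and their trend was removed by splines with 5 degrees of freedom each. Other fits used limma 3.58.1 (voom) and DESeq2 1.42.0, RLE scaling, no filter or a stricter one (1 CPM in 4 libraries, mean count 50), the 8 libraries compared, a block for column letter, and each library left out. Tables and figures used Python 3.11.15, numpy 2.4.6, pandas 2.3.3 and matplotlib 3.10.9.

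The 30 genes, companion lists and tests were chosen with earlier results of these data known. By rule, genes called in any comparison are given in every library, the 6 of the others with the smallest p (ACAT2, NSDHL, MSMO1, EBP, TMEM97 and PMVK) with values, and of companions up to 8 called genes per comparison. HMGCS1, SC5D, INSIG1, SQLE, HSD17B7, SCARB1 and CYP39A1 were added after their values were seen.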

Additional observations from a re-analysis of the deposited data

Results flagged for a closer look

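Of 90 groups of 4 libraries (30 genes in 3 groups), 10 held a library far from the other 3, by the ratio of its gap to the group's range (above Dixon's critical value at 95%). Chance flags about 1 in 20 such groups. IDI1 was at 96.6 CPM in control d, above the other controls at 86.9 to 88.3. CYP51A1 was at 162.5 CPM in PFBA d, where the others lay at 158.3 to 159.0, and at 187.1 in PFHxA b, where the others lay at 150.9 to 155.7. EBP was at 23.5 CPM in PFBA b, above 20.5 to 20.9. DHCR7, the last reductase of the pathway, was at 116.6 CPM in PFHxA b, above 93.8 to 97.6. SC5D was at 18.3 CPM in PFHxA a, below 31.6 to 33.5. INSIG1 was at 22.03 CPM in PFBA d, below 34.0 to 35.9, and at 38.3 in PFHxA d, above 25.3 to 26.4. TMEM97 was at 91.8 CPM in control d, above 48.2 to 53.4, and at 50.7 in PFHxA c, below 96.8 to 101.9. Control d, PFBA b, PFBA d and each PFHxA library was the distant one at least once.

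The change from control differed between the acids for 6 genes, by edgeR's test of PFHxA against PFBA: MVD (log2 difference 0.22, adjusted p = 0.0430), FDPS (0.23, 0.00349), TM7SF2 (0.28, 0.0308), SREBF2 (0.19, 0.0261), SCAP (0.23, 0.00532) and NPC1 (0.22, 0.0359). None of the 6 was called once the GC and length trend was removed.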

How the results depend on the processing

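Removing the GC and length trend changed most: the called genes fell to 433 for PFHxA against control and 146 against PFBA, the 30 genes had 0 higher, 0 lower and (against PFBA) 0 higher, and STARD4 went to 0.0383. Genes lower with PFHxA than control numbered 1 of 30 with no filter and 1 with only the 8 libraries compared. For PFBA against control the called genes of the whole table were 2 with no filter, 2 with 8 libraries, 0 with limma-voom, 44 with DESeq2 and 0 with the replicate block by column letter. With that replicate block, 2441 and 1838 genes were called for PFHxA against control and against PFBA, 3 and 2 of the 30 were higher and lower than control and 4 higher than PFBA. Without 1 library each, the whole-table calls ran from 1523 to 2396, from 0 to 4 (PFBA) and from 1035 to 2187 (PFHxA against PFBA), and of the 30 genes 2 to 4 were higher and 1 to 2 lower than control, and 2 to 6 higher than PFBA. PFHxA against PFBA had 2 of 30 called without PFBA c, without PFBA d or without PFHxA b, and 3 without PFHxA c or without PFHxA d. Whole-table calls fell by over 1.5 times without PFHxA b (1523 against control, 1035 against PFBA) and, against PFBA, without PFBA a (1151), PFBA c (1143), PFBA d (1108) or PFHxA c (1179). The single call lower than control left without control a, PFBA a, PFBA c or PFHxA c was IDI1. The cause of these shifts was not tested, beyond the smaller number of libraries. IDI1, SREBF2 and SCAP against control and SCAP and FDPS against PFBA were called in every fit but that with the trend removed. No fit called any of the 30 for PFBA against control.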
